A study of Mus musculus with 8 samples.

Results

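Nuclear-encoded respiratory chain genes are the protein-coding genes of the mouse nucleus whose products are subunits of the 5 enzyme complexes of oxidative phosphorylation. They were chosen by symbol: Nduf followed by a, b, c, s or v and a number for complex I, Sdha to Sdhd for complex II, Uqcr for complex III, Cox4 to Cox8 for complex IV and Atp5 for complex V. The rule found 85 of the 47311 genes that the deposited transcript tables could be matched to, of which 37 belonged to complex I, 4 to complex II, 8 to complex III, 18 to complex IV and 18 to complex V. Of these 85 genes, 79 had enough reads to be tested.

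Complexes I and II pass electrons from NADH and succinate to ubiquinone, complex III passes them on to cytochrome c, and complex IV reduces oxygen. Complexes I, III and IV pump protons across the inner mitochondrial membrane, and complex V, the ATP synthase, uses the gradient to make ATP. Resting blood stem cells are known to rely little on this chain, whereas progenitors that divide and differentiate use it more. Subunits encoded by mitochondrial DNA were not analysed here.

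The cells were LSK cells, the lineage-negative, Sca1-positive and Kit-positive fraction of bone marrow that holds blood stem cells and multipotent progenitors. They came from 8 mice in 4 groups of 2, which were old Asxl2 knockout (old KO), old wild type (old WT), young KO and young WT. Old mice were over 1 year of age and young mice 8 to 12 weeks. Each KO mouse was collected with a WT littermate in the same batch, and both batches held 1 mouse of every group. How the Asxl2 allele was made, whether the deletion was limited to blood cells and the sex of the mice are not given in the sources used here.

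Library totals were 45737972 to 80388500 estimated counts, at which counting error is small beside the spread between mice, except for genes of a few TPM. Asxl2, which encodes a chromatin-associated partner of the deubiquitinase Bap1, measured 5.34 and 4.99 TPM (a level scaled for transcript length and library depth) in old KO and 4.63 and 5.63 in young KO libraries. It measured 30.0 and 23.0 TPM in old WT and 30.8 and 23.7 in young WT libraries, so the genotypes did not overlap, and its log2 fold change was -2.10 (SE 0.17, edgeR adjusted p = 0.000408). All 10 LSK markers were detected in every library, and their summed level was 1678 to 2350 TPM in KO and 2283 to 3672 TPM in WT libraries. The libraries also differed in how TPM depended on transcript length. The slope of log2 TPM on log2 effective length was taken over 9833 protein-coding genes with a mean over 5 TPM. It was -0.92 and -0.79 in old KO and -0.63 and -0.62 in young KO libraries. In old WT libraries it was -0.57 and -0.58, and in young WT libraries -0.25 and -0.55. Short transcripts therefore took the largest share in old KO libraries, and young WT replicate 1 stood apart with the flattest slope.

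The promoters of these genes are known for sites of NRF1, of the ETS-family factor GABPA, of YY1 and of the estrogen-related receptors. RefSeq windows of 250 bases before to 50 bases after the annotated start (GRCm38.p6) were matched to 66 of the 85 genes. The NRF1 letters GCGCANGCG stood, on either strand, in a window of 20 of the 66 genes (30.3%), against 9.63% of the 17491 protein-coding genes with a window and 7.03% of all 27025 genes. The ETS letters CCGGAAG were present in 16 (24.2%, against 12.9% of protein-coding genes and 9.93% of all genes). The YY1 letters AAGATGGCG were present in 7 (10.6%, against 2.14% and 1.64%) and the ERR letters TCAAGGTCA in 2 (3.0%, against 0.38% and 0.47%). Sequences are shown for 2 genes whose RNA was higher in KO libraries (Cox6a1 and Atp5g3) and 2 whose RNA did not pass the test (Sdha and Uqcrc1), since all 4 windows hold the NRF1 letters. Capitals mark the searched letters on either strand, where matches to NRF1 overlap in Cox6a1 and Uqcrc1. The windows run 5′ to 3′ on the gene's strand at chr5:115348909-115349208 (minus) for Cox6a1, chr2:73911277-73911576 (minus) for Atp5g3, chr13:74350191-74350490 (minus) for Sdha and chr9:108936398-108936697 (plus) for Uqcrc1.
Cox6a1: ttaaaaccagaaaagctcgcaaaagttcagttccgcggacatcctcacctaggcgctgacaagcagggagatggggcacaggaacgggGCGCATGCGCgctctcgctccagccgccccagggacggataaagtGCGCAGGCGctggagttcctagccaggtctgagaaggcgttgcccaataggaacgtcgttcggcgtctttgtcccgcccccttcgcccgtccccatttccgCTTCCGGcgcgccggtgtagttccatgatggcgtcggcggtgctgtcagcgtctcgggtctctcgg
Atp5g3: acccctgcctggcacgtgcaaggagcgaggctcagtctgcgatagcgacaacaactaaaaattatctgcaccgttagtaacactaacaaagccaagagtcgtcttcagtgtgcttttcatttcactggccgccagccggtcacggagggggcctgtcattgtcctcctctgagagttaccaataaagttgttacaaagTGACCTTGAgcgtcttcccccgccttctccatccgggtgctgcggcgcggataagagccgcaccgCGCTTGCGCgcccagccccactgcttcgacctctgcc
Sdha: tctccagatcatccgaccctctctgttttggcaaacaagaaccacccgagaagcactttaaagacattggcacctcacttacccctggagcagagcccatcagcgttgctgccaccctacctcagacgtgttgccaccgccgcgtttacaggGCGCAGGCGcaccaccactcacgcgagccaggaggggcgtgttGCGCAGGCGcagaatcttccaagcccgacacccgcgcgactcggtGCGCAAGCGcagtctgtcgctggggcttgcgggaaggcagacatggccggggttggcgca
Uqcrc1: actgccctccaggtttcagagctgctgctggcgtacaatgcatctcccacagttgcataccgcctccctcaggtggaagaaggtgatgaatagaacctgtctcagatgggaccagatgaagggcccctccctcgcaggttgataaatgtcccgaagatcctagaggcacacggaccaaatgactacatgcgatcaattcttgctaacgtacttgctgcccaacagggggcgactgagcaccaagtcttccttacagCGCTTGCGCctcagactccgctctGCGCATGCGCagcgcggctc
Cox6a1 holds overlapping and single NRF1 matches and an ETS match just before the start, Atp5g3 an ERR and an NRF1 match, and Sdha and Uqcrc1 NRF1 matches alone.

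Respiratory chain genes were among the abundant transcripts of LSK cells. Of the 85 genes, 77 averaged over 10 TPM and 6 over 500 TPM. Atp5b, the catalytic beta subunit of ATP synthase, was the highest, at 1738, 1622, 1793 and 1774 TPM in KO (old replicates 1 and 2, then young replicates 1 and 2) and 1671, 1402, 1438 and 1859 TPM in WT libraries in the same order. The genotypes overlapped for Atp5b. Atp5a1, the alpha subunit, averaged 989.6 ± 99.0 TPM in KO and 1030.1 ± 149.9 TPM in WT libraries (SD, n = 4 each), and these also overlapped. Cox4i1, Uqcrc1, Atp5g3 and Atp5d made up the rest of the 6. Of the 8 genes under 10 TPM, 7 are isoforms known mainly from other tissues (Cox4i2, Cox6a2, Cox7a1, Cox7b2, Cox8b, Cox8c and Ndufa4l2), and 1 is another gene annotated as Atp5o. The 6 of them not tested were these without Cox4i2 and Cox6a2. Cox8b, a muscle isoform, was listed at 0 in every library, so it was not detectable at this depth.

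Summed per library, the 85 genes reached 25541 and 24250.0 TPM in old KO mice and 20295 and 21573 TPM in young KO mice. They reached 18870.0 and 18688 TPM in old WT mice and 16382 and 18941 TPM in young WT mice. All 4 KO sums were above all 4 WT sums. The order held for complexes I, III, IV and V, whose KO sums were all above their WT sums. Complex II did not follow it: its sums were 1186, 1325, 1407 and 1383 TPM in KO and 1316, 1265, 1250.1 and 1379.8 TPM in WT libraries, which overlapped, and the lowest was old KO replicate 1. In bulk RNA a change in the mix of cells and a change of RNA per cell cannot be told apart.

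**Figure D1:**
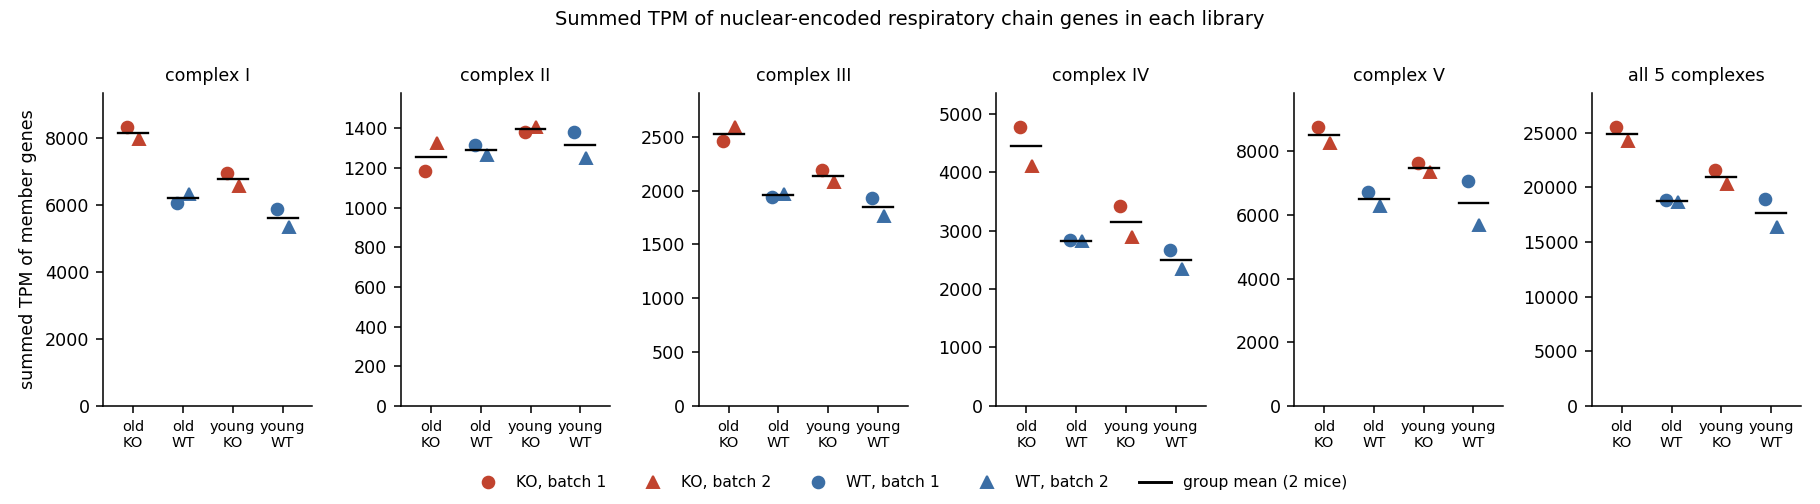
Summed TPM of member genes in each library, for each complex and for all 5 together (vertical axes from 0). Points are libraries, red for KO and blue for WT, circles for batch 1 and triangles for batch 2, and black lines are means of 2 mice. KO libraries lie above WT libraries in each panel except complex II, where they overlap.

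KO was set against WT over both ages to ask which genes depend on the genotype. At an adjusted p under 0.05 (edgeR quasi-likelihood test, Benjamini-Hochberg over 25543 genes) 26 of the 79 tested genes were higher in KO and 0 lower, where over all genes tested 3.19% were higher and 6.78% lower. The median log2 fold change was 0.53 over the 79 genes and 0.10 over all genes tested, and 76 of the 79 were positive. The calls were 7 of 36 genes in complex I, 4 of 8 in complex III, 7 of 14 in complex IV and 8 of 17 in complex V. In complex II 0 of 4 passed with edgeR, where 2 had an unadjusted p under 0.05, and 1 (Sdhb) with DESeq2, and the median was 0.19. All 4 KO libraries lay above all 4 WT libraries for 14 genes, which over all genes tested was so for 1.8%. For 60 genes KO exceeded its WT littermate in all 4 litters, a count made without a background over all genes. A positive log2 fold change was seen in 14123 of the 25543 genes tested. It was seen in 949 of 1130 other protein-coding genes within the 10th to 90th percentile of the respiratory genes' length and TPM.

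The count of 26 rested on particular libraries, among them each old library and young WT replicate 1. It was 1 without old KO replicate 1, 0 without old KO replicate 2 (58 at an unadjusted p under 0.05), 2 without old WT replicate 1, 0 without old WT replicate 2 (65 unadjusted), 3 without young WT replicate 1 and 41 without young WT replicate 2. With litter as a replicate block it was 8 (1.48% of all genes tested were higher), namely Cox5a, Cox6a2, Cox7b, Atp5g3, Atp5o, Atp5c1, Ndufa4 and Ndufv2. Within batch 1 alone 1 gene passed (Cox8a, where 0.458% of all genes tested were higher) and within batch 2 alone 6 did (Cox5a, Cox6a2, Atp5g3, Atp5o, Atp5c1 and Ndufa4, where 13.1% were), with median log2 fold changes of 0.68 in batch 1 and 0.32 in batch 2. DESeq2 called 62, all higher, where 7.47% of all genes tested were. For the fits with a library left out the share of all genes tested is not given here. Their counts are therefore not read as particular to the respiratory genes.

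In complex I the 7 genes that rose were Ndufv2, a core iron-sulfur subunit of the NADH-oxidising arm, and 6 small subunits (Ndufa4, Ndufa11, Ndufb5, Ndufb6, Ndufc2 and Ndufs6). Ndufa4 carries a complex I name, but its protein is known as a subunit of complex IV. Ndufa4 measured 559, 672, 567 and 422 TPM in KO libraries (old 1, old 2, young 1, young 2) and 303, 473, 325 and 318 TPM in WT libraries. Only young KO replicate 2 fell below the highest WT library, old WT replicate 2, and the log2 fold change was 0.71 (SE 0.16, adjusted p = 0.0247). Other core subunits that bind NADH or carry its electrons did not pass. Ndufs7 and Ndufs8 had log2 fold changes of 0.49 (adjusted p = 0.0681) and 0.45 (adjusted p = 0.0523), near the median of the complex. Ndufv1, which holds the flavin, averaged 289 ± 24.5 TPM in KO and 292 ± 29.3 TPM in WT libraries. Its log2 fold change was 0.18 (SE 0.11, adjusted p = 0.319). Log2 fold changes come from counts scaled between libraries, so they can differ from TPM means in size or, as here, in sign. Ndufs1, the largest iron-sulfur subunit, averaged 93.9 ± 18.2 TPM in KO and 112 ± 22.0 TPM in WT libraries, with a log2 fold change of -0.15 (SE 0.12, adjusted p = 0.405), and was below its littermate in every litter. The 29 complex I genes that did not pass ran from -0.15 (Ndufs1) to 0.64 (Ndufs5), with a median of 0.45.

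In complex II Sdhb, the iron-sulfur subunit, measured 421, 456, 394 and 436 TPM in KO and 377, 342, 299.7 and 382 TPM in WT libraries. The genotypes did not overlap, but the log2 fold change of 0.43 (SE 0.13) had an adjusted p of 0.0540. Sdha, the flavoprotein that oxidises succinate, measured 208, 263, 361 and 313 TPM in KO and 328, 349, 433 and 357 TPM in WT libraries. It was lower in KO in all 4 litters, although young KO replicate 1 exceeded 3 of the WT libraries, and its log2 fold change was -0.25 (SE 0.11, adjusted p = 0.171). The membrane anchors Sdhc and Sdhd had log2 fold changes of 0.15 and 0.24 (adjusted p = 0.414 and 0.275).

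In complex III the 4 that rose were small subunits around the catalytic core: Uqcrq, Uqcrb, Uqcrh and Uqcr10, with log2 fold changes of 0.63 to 0.71. Uqcrq measured 219, 235, 137 and 165 TPM in KO and 133, 137, 101 and 133 TPM in WT libraries. Every KO library was above every WT library, if barely for young KO replicate 1 (log2 fold change 0.71, SE 0.17, adjusted p = 0.0315). The Rieske iron-sulfur protein Uqcrfs1 averaged 199.6 ± 18.1 TPM in KO and 168 ± 18.4 TPM in WT libraries (log2 fold change 0.39, SE 0.13, adjusted p = 0.0814). The core protein Uqcrc1 averaged 585 ± 66.3 and 619.7 ± 49.2 TPM in KO and WT libraries (log2 fold change 0.06, SE 0.12, adjusted p = 0.773).

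In complex IV the genes that rose were Cox4i1, Cox5a, Cox5b, Cox6a1, Cox6a2, Cox6b1 and Cox7b. Cox5a (chr9:57521274-57532426, plus strand, mm10) encodes a subunit on the matrix face of the enzyme. It measured 641, 584, 356 and 429.9 TPM in KO and 327, 304, 261 and 304 TPM in WT libraries, without overlap, and its log2 fold change was 0.86 (SE 0.16, adjusted p = 0.0168). Its adjusted p was 0.05 without old KO replicate 1, 0.0643 without old KO replicate 2 and 0.0622 without old WT replicate 2. Cox4i1, which starts the assembly of the enzyme together with Cox5a, averaged 704 ± 98.9 TPM in KO and 547 ± 79.9 TPM in WT libraries, and its log2 fold change was 0.51 (SE 0.14, adjusted p = 0.0450).

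Among pairs of complex IV isoforms, the largest log2 fold change of all 79 genes belonged to Cox6a2, the isoform known from heart and skeletal muscle. Cox6a2 (chr7:128205435-128206387, minus strand, mm10) measured 9.16, 14.0, 3.52 and 4.48 TPM in KO and 2.93, 2.82, 1.10 and 1.60 TPM in WT libraries. Every KO library was above every WT library, old KO libraries were the highest, and the log2 fold change was 1.93 (SE 0.34, adjusted p = 0.0150). Its adjusted p was 0.0725 without old KO replicate 2, 0.11 in batch 1 alone and 0.0623 without old WT replicate 2. Its broadly expressed counterpart Cox6a1, whose coding sequence is 66.6% identical to it, measured 747, 478, 324 and 454 TPM in KO and 368, 314, 275 and 364 TPM in WT libraries. The genotypes overlapped for Cox6a1, and its log2 fold change was 0.69 (SE 0.19, adjusted p = 0.0432). Of 6 muscle markers Myh1, Myh4 and Acta1 were under 1 TPM in every library, and the summed level of the 6 was 15.6 to 18.9 TPM in KO and 15.9 to 20.1 TPM in WT libraries. Most of that sum was Mylpf, a myosin light chain, at 12.5 to 17.5 TPM in KO and 13.3 to 17.2 TPM in WT libraries.

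In the other isoform groups no rare form passed the test. Cox4i2, the isoform known from lung, averaged 3.87 ± 1.17 TPM in KO and 2.21 ± 0.591 TPM in WT libraries (log2 fold change 0.94, SE 0.37, adjusted p = 0.118). Cox7a2 averaged 95.3 ± 17.8 and 71.9 ± 13.6 TPM in KO and WT libraries (adjusted p = 0.0564), Cox7a2l, which is known to help complexes III and IV associate, averaged 188 ± 9.56 and 176 ± 17.1 TPM (adjusted p = 0.262), and the muscle form Cox7a1 was near 1 TPM and not tested. Cox8a averaged 507 ± 191 TPM in KO and 324 ± 36.3 TPM in WT libraries (log2 fold change 0.72, SE 0.22, adjusted p = 0.0584). Ndufa4l2, the hypoxia-linked relative of Ndufa4, reached at most 0.211 TPM.

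In complex V the genes that rose were Atp5g1 and Atp5g3, which encode subunit c of the membrane rotor, Atp5c1 and Atp5d of the central stalk, Atp5h and Atp5o of the outer stalk, and the membrane subunits Atp5j2 and Atp5l. Atp5g3 measured 894, 743, 552 and 606 TPM in KO and 497, 464, 357 and 479.7 TPM in WT libraries, without overlap (log2 fold change 0.76, SE 0.15, adjusted p = 0.0203). Atp5g1 averaged 425 ± 115 TPM in KO and 273 ± 24.8 TPM in WT libraries (log2 fold change 0.72, SE 0.18, adjusted p = 0.0329). Atp5g2, the remaining subunit c gene, averaged 136 ± 39.3 and 97.8 ± 23.0 TPM in KO and WT libraries (log2 fold change 0.54, SE 0.19, adjusted p = 0.0880). The catalytic head differed less, with a log2 fold change of 0.25 for Atp5b (SE 0.12, adjusted p = 0.177) and 0.05 for Atp5a1 (SE 0.12, adjusted p = 0.819). Atp5mpl, a small proteolipid, had a high log2 fold change of 0.77 without passing (SE 0.22, adjusted p = 0.0509), and Atp5s, a coupling factor, the lowest of the complex at -0.08 (adjusted p = 0.744).

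**Figure D2:**
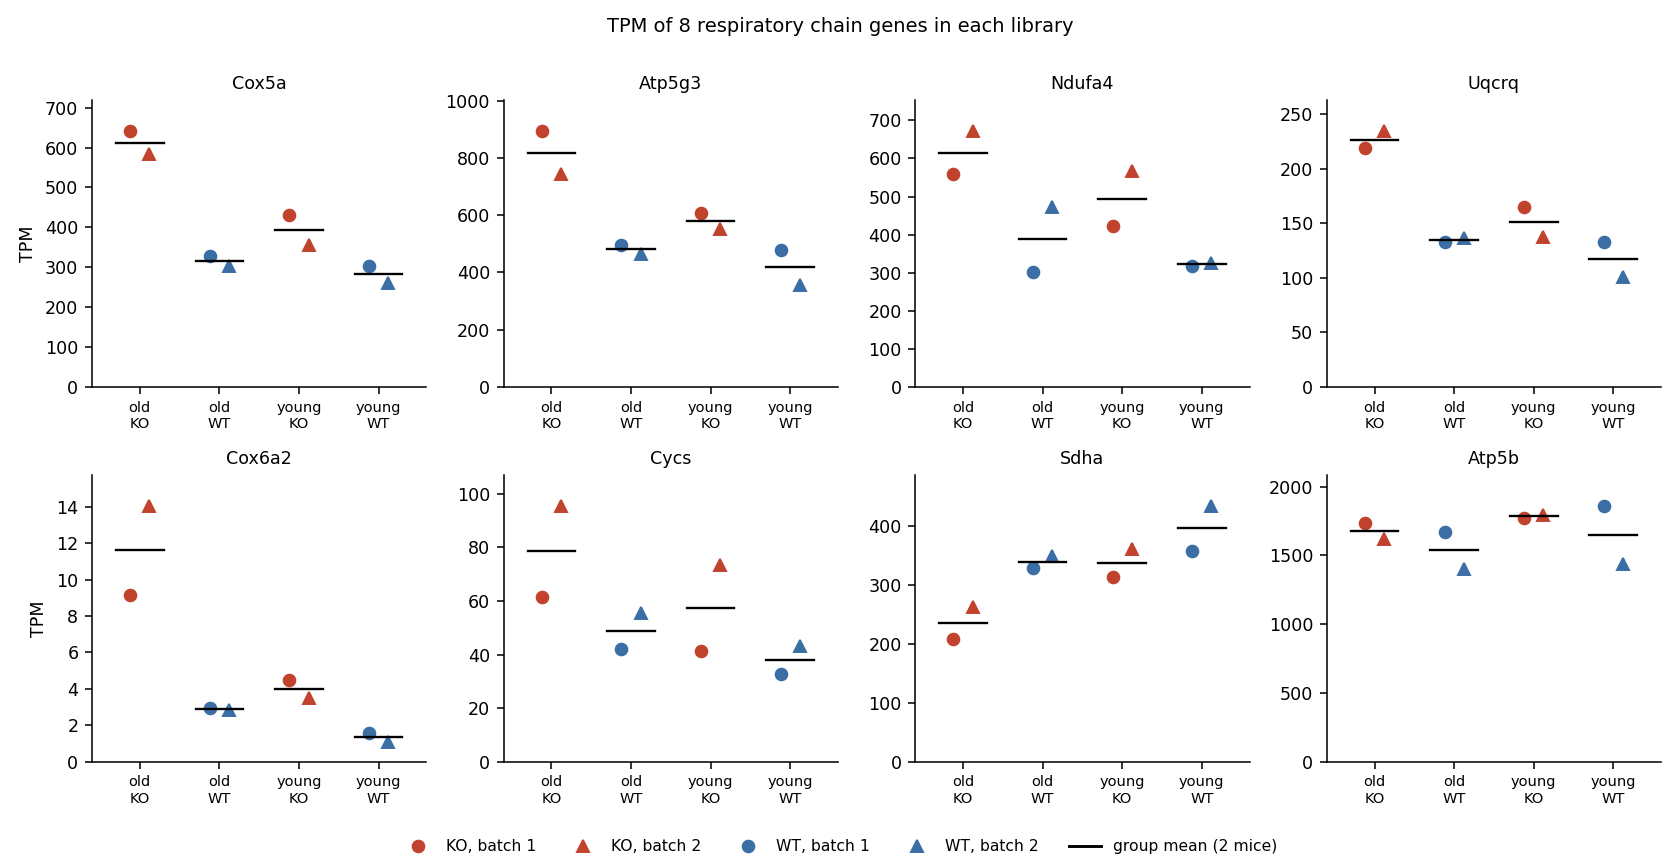
TPM of 8 genes in each library (vertical axes from 0; red for KO, blue for WT, circles for batch 1, triangles for batch 2, black lines for means of 2 mice). Cox5a, Atp5g3 and Cox6a2 show no overlap between KO and WT libraries, whereas Sdha and Atp5b overlap. Cycs, the gene of cytochrome c, is higher in batch 2 than in batch 1 in every group.

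Long respiratory genes had smaller log2 fold changes than short ones. The 79 tested genes had a median effective length of 448 bases, against 1969 bases over all protein-coding genes tested, and across them the log2 fold change fell with length (Spearman rho -0.64, n = 79 genes that share the same 8 libraries). The same rho over 9754 other protein-coding genes with a mean over 5 TPM was -0.63. The length classes that follow have no such limit. Under 300 bases the median log2 fold change was 0.63 for 22 respiratory genes and 0.56 for 349 other protein-coding genes. From 300 to 600 bases it was 0.57 for 29 and 0.45 for 984, and from 600 to 1000 bases 0.41 for 14 and 0.29 for 1991. Over 1000 bases it was 0.21 for 14 respiratory genes and -0.17 for 14013 others. Among genes of 300 to 600 bases 15 of the 29 respiratory genes rose, and 131 of the 984 others (13.3%) did.

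**Figure D3:**
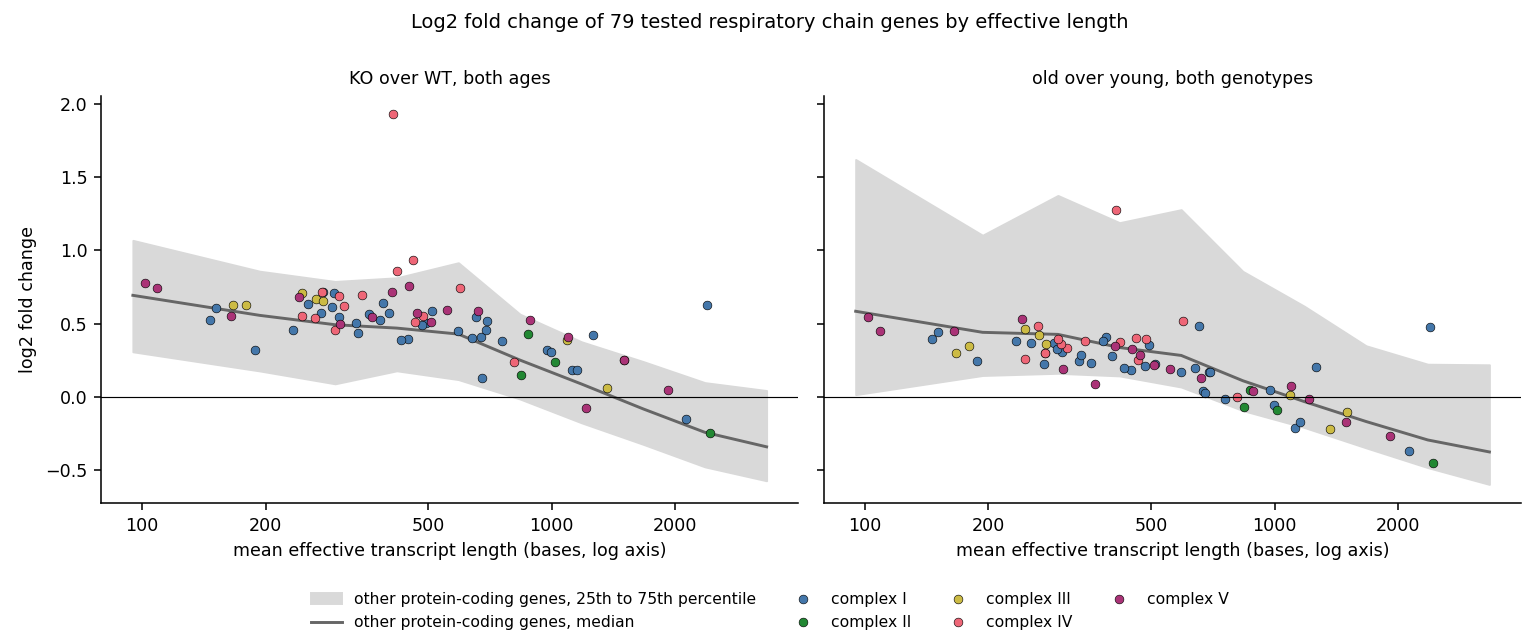
Log2 fold change of the 79 tested genes against mean effective transcript length in bases (log axis), for KO over WT over both ages and for old over young over both genotypes. Points are respiratory chain genes coloured by complex, and the grey line and band are the median and the 25th to 75th percentile of the other protein-coding genes tested, by length. Both gene sets fall with length in both panels, and Cox6a2 lies far above the band for KO over WT.

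The rest of the transcriptome was also compared by length. Of 4344 other protein-coding genes between the 10th and 90th percentile of the respiratory genes' length, 7.16% were higher in KO and the median was 0.29. Between the 25th and 75th percentile it was 10.8% of 1888 genes and 0.43. Of 1130 genes in the same range of both length and TPM, 14.2% were higher and the median was 0.26. These groups still hold more long genes than the respiratory set does, and no test of the difference was made.

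When each library's trend with length was taken out, 1 of the 79 genes was called higher in KO and 0 lower (edgeR), against 1.39% and 2.51% of all genes tested. That gene was Cox6a2, with a log2 fold change of 1.46 (SE 0.36, adjusted p = 0.0361). The median over the 79 genes became 0.07 and that over all genes tested -0.04, and 3 genes had an unadjusted p under 0.05. Over the 1130 other genes in the same range of length and TPM the median was -0.07, with 5 called higher and 19 lower. Medians were 0.04 in complex I, -0.10 in complex II, 0.15 in complex III, 0.14 in complex IV and 0.16 in complex V. The accessory subunit gene Ndufa11 had the next highest value, 0.68 (adjusted p = 0.0582), and is also one of the longest, at 2391 bases. Cox5a became 0.38 (adjusted p = 0.218) and Atp5g3 0.29 (adjusted p = 0.316). With the correction and a library left out, between 0 and 2 genes were called, and Cox6a2 was not called without old KO replicate 1 (adjusted p = 0.0617), old KO replicate 2 (0.17), old WT replicate 1 (0.0751), old WT replicate 2 (0.103) or young WT replicate 1 (0.0915). Whether the trend with length arose in the cells or in the making of the libraries was not tested.

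Some lists of markers of other cell types also moved with the genotype, where over all genes tested 3.19% were higher in KO and 6.78% lower. The 9 erythroid markers summed to 94.0 to 612 TPM in KO and 278 to 1290 TPM in WT libraries, and 7 of 9 fell. The 7 T and NK cell markers summed to 563 to 806 TPM in KO and 301 to 417 TPM in WT libraries, with 1 that rose and the T cell marker Cd3e under 1 TPM throughout. Nearly all of this sum was Nkg7, at 555 to 791 TPM in KO and 287 to 398 TPM in WT libraries, whereas the NK cell markers Klrb1c (5.14 to 8.97 TPM in KO and 5.13 to 12.7 TPM in WT) and Ncr1 (0.032 to 1.00 TPM in KO and 0.548 to 3.40 TPM in WT) overlapped. Of 10 neutrophil and granulocyte markers 1 fell and 0 rose, and of 5 megakaryocyte markers 1 rose and 0 fell. Of 6 B cell markers 0 passed. The sums of these 3 lists overlapped between the genotypes. The B cell sum was highest in old WT replicate 2, at 4291 TPM, and in old KO replicate 1, at 1957 TPM, of which Igkc, an immunoglobulin light chain, made up most. Of 5 mast cell and basophil markers 4 fell and of 5 monocyte and macrophage markers 2 rose, with the macrophage marker Adgre1 under 1 TPM throughout. Of the 10 LSK markers 2 rose and 4 fell. Of the genes behind the gate, Kit measured 63.4 to 161 TPM in KO and 133 to 547 TPM in WT libraries, and Ly6a, which encodes Sca1, 266 to 661 TPM in KO and 150 to 276 TPM in WT libraries. The part of these differences in the respiratory genes was not tested.

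Within old mice the respiratory genes had a median log2 fold change of 0.68, KO over WT, and within young mice 0.37. Over all genes tested these medians were 0.07 and 0.04. Over the 1130 other genes in the same range of length and TPM they were 0.28 and 0.24. From 300 to 600 bases they were 0.72 and 0.39 for respiratory and 0.54 and 0.33 for other protein-coding genes. Under 300 bases they were 0.86 and 0.39 for respiratory and 0.75 and 0.36 for other protein-coding genes. In old mice 1 gene passed, Cox5a (log2 fold change 1.16, SE 0.21, adjusted p = 0.0398), where 0.204% of all genes tested were higher and 0.446% lower, and 56 had an unadjusted p under 0.05. With litter as a replicate block Cox5a had an adjusted p of 0.0990. It also missed the threshold when any old library was left out. More genes passed when any young library was left out. Each such fit leaves 1 mouse in a group, and its share of all genes tested is not given here. In young mice 0 genes passed with edgeR or DESeq2, and 10 had an unadjusted p under 0.05 with edgeR, where 0.00783% of all genes tested were higher and 0.0548% lower. Whether the genotype effect differs between ages was tested as an interaction, in which 0 of 79 genes passed and 0 had an unadjusted p under 0.05 with edgeR, where 0.00391% of all genes tested passed, and 0 passed with DESeq2. The median interaction was 0.30 on the log2 scale and -0.03 after the length correction. Over all genes tested it was -0.01 and -0.18, and over the 1130 genes matched in range 0.05 and -0.19. Without the correction it was 0.44 for respiratory and 0.39 for other protein-coding genes under 300 bases. From 300 to 600 bases it was 0.40 for respiratory and 0.20 for other protein-coding genes.

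Old mice were set against young mice over both genotypes to ask how the genes change with age. Of the 79 genes 1 rose (4.34% of all genes tested did) and 1 fell (9.61%). Cox6a2 was the one that rose, with a log2 fold change of 1.28 (adjusted p = 0.0370), and measured 9.16 and 14.0 TPM in old KO, against 3.52 and 4.48 TPM in young KO mice, and 2.93 and 2.82 TPM in old WT, against 1.10 and 1.60 TPM in young WT mice. Sdha was the one that fell (log2 fold change -0.45, SE 0.11, adjusted p = 0.0319), and both old libraries of each genotype were below both young ones. The median was 0.25 over the 79 genes and 0.15 over all genes tested, and the log2 fold change again fell with length (rho -0.72, n = 79 genes). Leaving out old KO replicate 1 or 2, young KO replicate 1 or 2, old WT replicate 1 or young WT replicate 1 brought the calls to 0, and without young WT replicate 2 there were 5. For these fits with a library left out the share of all genes tested is not given here. With protein-coding transcripts alone 28 genes rose, where 4.4% of the 16964 genes tested in that setting did. In that setting 0 fell (edgeR, where 5.58% did), and Sdha was not among the calls. Among genes that did not pass, the log2 fold change ran from -0.37 (Ndufs1) to 0.48 (Ndufb4) in complex I, from -0.22 (Uqcrc1) to 0.47 (Uqcrq) in complex III and from -0.27 (Atp5a1) to 0.54 (Atp5mpl) in complex V.

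With the length correction 7 genes fell with age (13.6% of all genes tested did) and 0 rose (5.34%). They included Ndufa10, Ndufs1, Ndufv1, Sdha, Sdhc and Uqcrc1, whose log2 fold changes were -0.43 to -0.51, and the median over the 79 genes was -0.37. Of the 1130 other genes matched in range for length and TPM 28.1% fell, with a median of -0.42. Leaving out old WT replicate 2 gave 42 that fell, leaving out young KO replicate 1 or young WT replicate 2 gave 1, and leaving out any of the other 5 libraries gave 0. For these fits with a library left out the share of all genes tested that fell is not given here. Their counts are therefore not read as particular to the respiratory genes. Of the marker lists, 6 of 9 erythroid and 5 of 10 LSK markers also fell with age, and their part was not tested. Within KO mice 0 of 79 genes passed with edgeR (24 had an unadjusted p under 0.05), where 0.0626% of all genes tested were higher and 0.0235% lower, while DESeq2 called 13 higher and 1 lower, where 4.33% and 8.87% of all genes tested were. Within WT mice 0 passed with edgeR (0 unadjusted), where 0.0666% and 0.0196% were higher and lower, and 0 passed with DESeq2.

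Some of these genes share reads with near-identical copies, which are mostly processed pseudogenes. A gene at least 95% identical over at least 80% of the coding sequence was found for 20 of the 85. For 5 of them the copies held over 20% of the joint TPM: 79.8% for Ndufb4, 70.5% for Atp5g2, 47.2% for Ndufs5, 46.2% for Ndufa12 and 25.1% for Atp5g1. How reads were divided between such a gene and its copies is therefore uncertain, and the levels of these genes are uncertain with it. With the copies' counts added, an alternative chosen after seeing the data, 27 genes were called higher in KO (3.2% of all genes tested were), and Atp5g2 joined them with a log2 fold change of 0.65 (adjusted p = 0.0440). Transcripts annotated as protein-coding held 88.2% to 92.2% of the summed TPM, but under 50% for 4 genes: 11.8% for Ndufa10, 21.1% for Atp5f1, 34.7% for Ndufa5 and 40.1% for Cox5b. With such transcripts alone 63 genes were called higher in KO, where 8.38% of all genes tested were.

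Calls were also counted by the promoter letters, with no test. Of 20 tested genes with the NRF1 letters 8 were higher in KO, and of 43 without them 14. For any of the 4 motifs the counts were 12 of 35 and 10 of 28, with medians of 0.55 and 0.51. The window of Sdha, printed above with its NRF1 letters, belongs to a gene that was not called, and that of Atp5g3 to one that was.

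Genes around the respiratory chain were called in both directions, where over all genes tested 3.19% were higher in KO and 6.78% lower. Of 5 subunits and carriers whose symbols the rule does not match 1 rose in KO: Cycs, which encodes cytochrome c, the carrier between complexes III and IV. Cycs measured 61.6, 95.4, 73.5 and 41.3 TPM in KO and 42.0, 55.6, 43.1 and 32.8 TPM in WT libraries, so the genotypes overlapped over both batches. Within batch 1 its KO libraries were 61.6 and 41.3 TPM and its WT libraries 42.0 and 32.8 TPM, and KO was above WT in all 4 litters. The log2 fold change was 0.81 (SE 0.13, adjusted p = 0.0116). Cycs is long, at 2441 bases, and after the length correction it was 0.87 (SE 0.15, adjusted p = 0.00678). It passed under 25 of 28 alternatives, and missed the threshold in batch 1 alone (0.387), with no batch term (0.0549) and without old WT replicate 2 (0.0539).

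Of 43 assembly factors 1 rose, Uqcc2 of complex III (log2 fold change 0.63, adjusted p = 0.0358), and after the length correction none passed with edgeR (3 had an unadjusted p under 0.05). Of 7 carriers and channels 1 rose, the ADP/ATP carrier Slc25a5, at 1444 ± 195 TPM in KO and 1103 ± 108 TPM in WT libraries (log2 fold change 0.53, adjusted p = 0.0281). Among 16 regulators of mitochondrial biogenesis 2 fell. Over all genes tested 6.78% were lower in KO, and of other protein-coding genes over 1000 bases 12.0% were. These shares also stand beside the TCA cycle list below. Polg, the polymerase that copies mitochondrial DNA, fell by 0.84 on the log2 scale (adjusted p = 0.0247) and by 0.68 after the length correction (adjusted p = 0.0439), and Polrmt, which transcribes it, fell by 0.61 (adjusted p = 0.0308). Polg measured 10.6, 14.7, 23.1 and 22.9 TPM in KO and 23.9, 27.6, 67.5 and 27.2 TPM in WT libraries, with young WT replicate 1 far above the rest. Of 16 genes of the TCA cycle Ogdh, a subunit of the oxoglutarate dehydrogenase complex, fell (log2 fold change -0.56, adjusted p = 0.0399), and of 6 genes of mitochondrial peroxide defence none passed with edgeR (2 had an unadjusted p under 0.05). After the length correction Slc25a5 was 0.25 (adjusted p = 0.266), Uqcc2 0.10 (0.824), Polrmt -0.48 (0.102) and Ogdh -0.40 (0.132). Without that correction Uqcc2, Slc25a5, Polg, Polrmt and Ogdh each kept an adjusted p under 0.05 without young KO replicate 2 or young WT replicate 2, and lost it without any of the other 6 libraries, with adjusted p-values of up to 0.104 for Polg and 0.18 for Ogdh. With age 6 of the 16 regulators and 5 of the 16 TCA cycle genes fell, and 0 in either list rose. Over all genes tested 9.61% fell with age, and of other protein-coding genes over 1000 bases 17.2% did. Median effective lengths were 2718 bases for the regulators, 2172 for the TCA cycle and 1112 for the assembly factors.

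**Figure D4:**
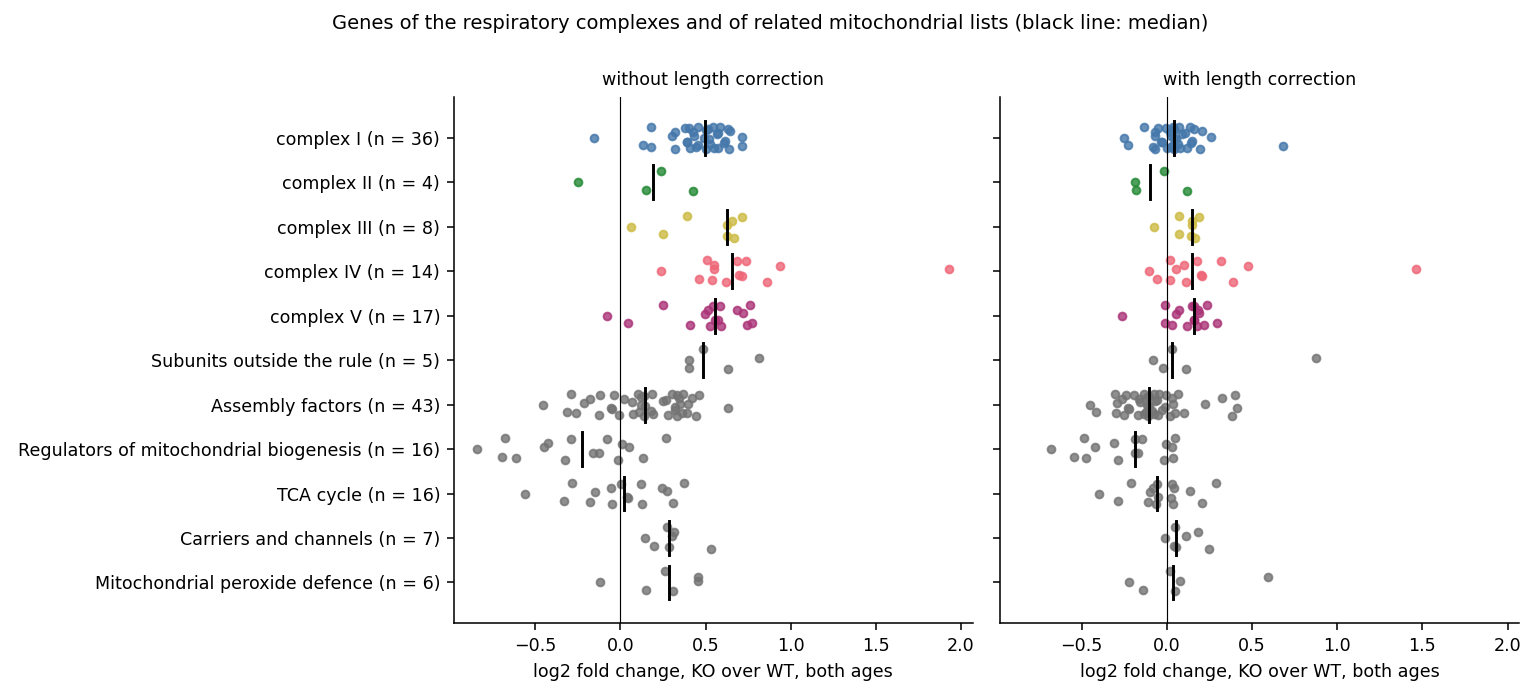
Log2 fold change of KO over WT over both ages, for tested genes of each complex and of 6 related lists, without and with the length correction. Each point is a gene, and black lines are medians. The medians of complexes I, III, IV and V lie between 0.50 and 0.65 on the left and between 0.04 and 0.16 on the right, where Cox6a2 (1.46) and Cycs (0.87) stand apart.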

How the data were processed

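Polyadenylated RNA from sorted LSK cells of 8 mice was extracted with the RNeasy Micro kit and amplified with the SMART-Seq v4 kit, per the labels' protocols. The tables deposited by the authors give estimated counts, TPM and effective length for 115088 transcripts in each library, per the file headers. Per the submitters' processing notes, kallisto, the mm10 genome and DESeq2 were used (versions not given in the sources used here). The deposited estimated counts are not normalized, and the deposited TPM are scaled for transcript length and depth by the authors' quantification. A deposited score of effective length, in bases, served only to describe and correct for length.

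Transcripts were matched by identifier to GENCODE vM21 (same build), which paired 114200 with 47311 genes, and the 888 others (0.259% to 0.470% of counts) were left out. Each gene's estimated counts were added up and rounded, and its TPM added up. Genes were kept with filterByExpr (minimum count 10, minimum total 15), leaving 25543. Counts were scaled by TMM and tested with edgeR 4.0.16 (R 4.3.3). The printed TPM were not scaled by TMM, so a log2 fold change can differ in size or sign from the TPM beside it. A model with genotype, age and batch as additive terms gave the comparisons over both ages or genotypes (4 residual degrees of freedom), and a model of the 4 groups and batch the others (3). Library totals, 45737972 to 80388500 estimated counts, make counting error small beside the spread between mice, except for genes of a few TPM. The p-values measure the spread among these 8 mice. No pair of libraries was alike within sampling noise (chi-square per degree of freedom 85.4 to 265 within groups).

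Alternatives were DESeq2 1.42.0, no filter, no batch term, a length correction (per library, a loess of span 0.5 of log2 counts on log2 effective length, used as an offset), average transcript length as an offset, protein-coding transcripts alone, limma 3.58.1 on log2(TPM + 1), litter as a replicate block, single batches and each library left out. Length correction combined with the block or with a library left out, and the adding of near-identical genes (BLAST 2.17.0), were chosen after seeing the data. The pairing by litter comes from the labels. Littermates' deviations from their group means correlated at 0.06 in old and 0.12 in young litters.

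Genes named are core or catalytic subunits, isoform groups, the highest and lowest log2 fold change of each complex in each main comparison, and genes that passed. The rule, the gene lists and the promoter motifs were chosen with earlier results of these data known. Tables were handled in Python 3.11.15 with pandas 2.3.3.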

Additional observations from a re-analysis of the deposited data

Results flagged for a closer look

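In 3 cases a library stood far from the other libraries of its genotype by Dixon's 95% criterion for 4 libraries. Chance flags about 1 in 20 groups, and 30 genes were examined in both genotypes. Ndufa4 was 473 TPM in old WT replicate 2, above the other WT libraries, with a gap of 0.868 of the range. Uqcrq was 101 TPM in young WT replicate 1, below the other WT libraries, with a gap of 0.878 of the range. Ndufa4l2 was 0.211 TPM in old WT replicate 2 and listed at 0 in the other WT libraries.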

How the results depend on the processing

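Results are log2 fold changes or numbers of the 79 genes called. Unless stated, the numbers stand without the share of all genes tested that the same fit called. A larger number is therefore not read as particular to the respiratory genes. For KO against WT over both ages the number was 26, and became 62 with DESeq2, 44 without a filter, 2 without the batch term, 1 with the length correction, 63 with protein-coding transcripts alone, 8 with the replicate block, 1 with the block and the length correction, 1 in batch 1 and 6 in batch 2; leaving out libraries gave 0 to 41, and 0 to 2 with the length correction. For KO against WT in old mice 1 became 47 with DESeq2, 24 without a filter and 0 without the batch term. It became 47 with protein-coding transcripts, where 518 of the 16964 genes tested in that setting were higher and 696 lower. It was 0 with the length correction, 25 with limma, 0 with the replicate block and 0 with the block and the length correction. Leaving out a library also moved it. For age over both genotypes 2 became 14 with DESeq2, 0 without the batch term, 7 with the length correction, 28 with protein-coding transcripts, 0 with limma, 0 in batch 1 and 1 in batch 2, and 0 to 5 without a library, or 0 to 42 with the length correction too. For age in KO mice 0 became 14 with DESeq2, and 0 to 1 without a library. In young mice alone, for age in WT mice and for the interaction every alternative run gave 0. The median of genes of similar length was 0.29, and 0.43 in the narrower range.

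Among the named genes, directions turned in those that did not pass. Fits that combined the length correction with the block or a left-out library were not counted in this. Over all 28 alternatives some genes called higher in KO also turned negative. The lowest log2 fold change was -0.185 for Atp5h, -0.15 for Uqcr10 and -0.062 for Cox6a1. It stayed positive for Cox5a (0.209) and Cox6a2 (1.292). For KO against WT, the length correction gave -0.103 for Cox7a2l, -0.027 for Ndufv1 and -0.076 for Uqcrc1; limma gave -0.052 for Atp5a1, -0.012 for Ndufv1 and -0.088 for Uqcrc1; batch 1 gave -0.046 for Atp5a1 and -0.034 for Uqcrc1; protein-coding transcripts gave 0.047 for Atp5s. Without a library Atp5a1 ran from -0.074 to 0.126 and Uqcrc1 from -0.069 to 0.145. For age, the length correction gave -0.34 for Atp5mpl, -0.051 for Ndufb4, -0.37 for Sdhb and -0.27 for Uqcrq, and batch 1 gave -0.15 for Sdhb. Cox7a2l, at 0.00 for age, was 0.007 with DESeq2, 0.19 with protein-coding transcripts, 0.032 with limma and 0.18 in batch 2. Without a library it ran from -0.11 to 0.066, and Sdhb from -0.038 to 0.135. The cause was not tested.

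The length correction moved the median of all genes by over 0.1 (from 0.10 to -0.04 for KO against WT and from 0.15 to -0.14 for age), so corrected values are relative to it. With 2 mice a group, a gene that did not pass may still differ. Depth limits the 6 genes not tested, which averaged under 2 TPM. Counting error also weighs more on Cox4i2 and Cox6a2, which averaged 3.04 and 4.96 TPM, than on the other tested genes.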
